A study of Mus musculus with 6 samples.

Results

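The m6A writer complex subunits are the 7 genes Mettl3, Mettl14, Wtap, Zc3h13, Rbm15, Rbm15b and Cbll1, taken by symbol from count tables of 24984 gene symbols. All 7 passed the filter on low counts, which kept 15663 genes. RNA was measured in 6 libraries of mouse embryonic stem cells of the line E14TG2a, in 3 groups of 2. The D395A group carries METTL3 with an aspartate of its active site exchanged for alanine (D395A), put in by CRISPR/Cas9 with homology-mediated end joining. The KO group has METTL3 disrupted by CRISPR/Cas9, and the WT group is the unmodified line. All groups were grown in N2B27, a defined medium without serum. The labels describe each mutant as 1 cell line and do not say whether its libraries came from separate clones or cultures, so the p-values speak of the scatter among these libraries alone, and genotype and history of a line cannot be told apart. According to the design text, the knockout was made to study how m6A and circular RNA interact. Gene counts were analysed here, and neither m6A nor circular RNA.

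N6-methyladenosine (m6A) is the most common internal mark of messenger RNA and is placed in the nucleus while transcripts are made. METTL3 holds the methyl donor and catalyses the reaction, and METTL14 binds it as a partner that has no activity of its own and helps to hold the RNA. WTAP anchors this pair in nuclear speckles and ties it to a larger group of proteins. That group contains VIRMA, the scaffold, ZC3H13, which keeps the complex in the nucleus, the RNA-binding proteins RBM15 and RBM15B, which bring it to chosen transcripts, and HAKAI, a ubiquitin ligase encoded by Cbll1. In mouse embryonic stem cells m6A shortens the life of many pluripotency transcripts and takes part in the exit from the naive state.

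The altered residue lies in a short motif of METTL3 that binds the methyl donor. The codon that D395A replaces, GAC in the reference, lies in exon 6 of 11 of the principal Mettl3 transcript (GRCm38 chromosome 14, minus strand, 52297590 to 52297592). METTL14 carries a related but degenerate motif, which begins at codon 192 in exon 7 of 11 (chromosome 3, minus strand, 123374814 to 123374816). Both stretches of coding sequence are from the GENCODE transcripts of the reference genome and are shown because they set the catalytic subunit beside its inactive partner. The capitals mark the 4 codons of the motif, and the D395A change is in the first of them.
Mettl3, chr14:52297572-52297601: gtgatggctGACCCACCTTGGgatattcac
Mettl14, chr3:123374796-123374825: attctcctgGAGCCCCCTCTGgaagaatac
The deposited counts hold no base calls, so the edit itself could not be read in any library.

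Promoter windows reach from 250 bases before to 50 bases after an annotated transcript start (RefSeq, GRCm38.p6), and 6 of the 7 genes matched. Mettl14 did not. The windows of 3 genes are printed: Mettl3, the targeted gene, and Wtap and Rbm15b, both higher in each mutant line than in WT. Capitals mark matches on either strand to the motifs that are spelled out after the sequences.
Mettl3, minus strand, chr14:52305075-52305374: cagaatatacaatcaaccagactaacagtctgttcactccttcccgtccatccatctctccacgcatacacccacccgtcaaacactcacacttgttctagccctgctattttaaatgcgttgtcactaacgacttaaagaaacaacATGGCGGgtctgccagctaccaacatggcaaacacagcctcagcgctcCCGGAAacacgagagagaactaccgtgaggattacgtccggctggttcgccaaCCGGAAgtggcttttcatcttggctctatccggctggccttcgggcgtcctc
Wtap, minus strand, chr17:12992494-12992793: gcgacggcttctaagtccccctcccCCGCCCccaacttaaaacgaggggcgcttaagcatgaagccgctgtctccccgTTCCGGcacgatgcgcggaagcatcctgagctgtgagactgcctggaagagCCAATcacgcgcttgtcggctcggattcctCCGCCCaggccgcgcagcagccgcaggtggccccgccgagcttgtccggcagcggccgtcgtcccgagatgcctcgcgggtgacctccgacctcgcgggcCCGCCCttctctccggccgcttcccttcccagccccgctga
Rbm15b, minus strand, chr9:106887026-106887325: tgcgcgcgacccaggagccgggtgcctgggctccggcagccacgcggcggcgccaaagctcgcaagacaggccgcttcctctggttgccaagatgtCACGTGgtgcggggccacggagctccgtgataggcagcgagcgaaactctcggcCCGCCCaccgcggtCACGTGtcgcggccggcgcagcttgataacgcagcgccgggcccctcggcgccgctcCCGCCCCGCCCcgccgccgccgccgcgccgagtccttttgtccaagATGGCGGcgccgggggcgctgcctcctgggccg
The windows differed in base composition, with a GC content of 52.0% and 17 CpG in Mettl3, 69.3% and 35 CpG in Wtap, and 75.3% and 46 CpG in Rbm15b, against medians of 52.7% and 7 CpG over 27025 promoters. Rbm15b held CACGTG at 2 positions, a motif found in 7.24% of all promoters. ATGGCGG stood once in Mettl3 and once in Rbm15b, and 4.19% of promoters hold it. Mettl3 held CCGGAA at 2 positions and Wtap held it at 1 (15.2% of promoters). Wtap held CCAAT once (37.9%), and GGGCGG was found at 3 positions in each of Wtap and Rbm15b (35.9%). Of the GGGCGG matches in Rbm15b, 2 share a base. TATAAA (14.2%) and TGACGTCA (1.88%) were in none of the 6 windows. CCGGAA and GGGCGG also stood in the windows of Zc3h13 and Cbll1, and CCAAT and GGGCGG in that of Rbm15. GC content there was 58.7% for Zc3h13, 63.3% for Cbll1 and 54.3% for Rbm15. A link between these features and the RNA levels was not tested. For Wtap, which has 3 windows, the first was used. The Wtap and Rbm15b windows lie inside the annotated genes, whose 5′ ends are at 12994169 and 106887428.

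Gene counts totalled 22859491 and 35784699 in the D395A libraries, 35851584 and 35613626 in KO, and 40476809 and 36136543 in WT. CPM stands for a gene's counts relative to the library size, which was adjusted by the trimmed mean method (TMM). Replicates differed by more than sampling noise in every group, and most in D395A: chi-square divided by its degrees of freedom was 11.1 there, 6.48 in KO and 3.18 in WT. Reads outside annotated genes made up 33.8% to 37.3% of the table totals in D395A, 22.3% to 31.1% in KO and 30.2% in both WT libraries. All 8 embryonic stem cell markers were detected, and their summed level was 2017 to 2070 CPM in D395A, 4771 to 4793 in KO and 4082 to 4151 in WT. In D395A against WT, 7 of these 8 genes fell, and in KO against WT 4 rose and 2 fell. Of all tested genes, 36.3% rose and 34.0% fell in D395A against WT, and 33.6% rose and 32.6% fell in KO against WT. Markers of 4 other cell types were low. Their sums were 11.2 to 11.7, 17.5 to 18.1 and 26.3 to 26.5 CPM in D395A, KO and WT for 7 fibroblast genes, and 47.1 to 49.1, 21.6 to 23.1 and 54.6 to 56.7 CPM for 6 neural genes. For 5 extraembryonic endoderm genes they were 20.5 to 21.4, 24.0 to 29.3 and 11.3 to 12.1 CPM, and for 5 mesoderm genes 3.71 to 3.91, 9.44 to 10.7 and 18.4 to 21.9 CPM. Some sums differ in direction from most of the genes in them. In D395A against WT, Sox1, Pax6, Neurod1 and Map2 rose and Tubb3 fell among 5 tested neural genes, while in KO against WT Pax6 and Tubb3 fell. Among the endoderm genes Dab2 rose, and Gata4 and Gata6 fell, in both lines. Col1a1 and Pdgfrb fell in both lines, and Col3a1 and Dcn rose in D395A. These rises rest on 12 and 23 counts of Col3a1 and 38 and 34 of Dcn in D395A, with 0 in both WT libraries. Such counts are too few for a stable fold change. The mesoderm genes T and Eomes fell in both lines. T had 2 and 8 counts in D395A, 8 and 3 in KO, and 199 and 122 in WT. None of these markers was at 0 in all 6 libraries. The part of these shifts in the results that follow was not tested. In bulk RNA, fewer cells of a type and less RNA per cell cannot be told apart.

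The 2 methyltransferase genes were lower in both mutant lines, Wtap and Rbm15b were higher in both, and Zc3h13 passed the test in neither. In D395A against WT, 2 of the 7 genes rose and 2 fell, where 36.3% of all tested genes rose, 34.0% fell and 70.3% passed in either direction. In KO against WT, 4 rose and 2 fell, where 33.6% of all genes rose, 32.6% fell and 66.2% passed in either direction. In D395A against KO, 3 genes were higher and 2 lower, where 26.5% of all genes were higher, 23.8% lower and 50.4% called in either direction. Since most genes changed against WT in these lines, the member counts are given as a description and not as a feature of the complex. The libraries of 2 groups did not overlap for 85.3% of all tested genes in D395A against WT, 83.9% in KO against WT and 74.7% in D395A against KO. Among the 7 genes they overlapped for Zc3h13 and Cbll1 in D395A against WT and for Cbll1 in D395A against KO. The median absolute log2 fold change of the 7 genes was 0.35 in D395A against WT, where that of all tested genes was 0.60. In KO against WT it was 0.69, where that of all genes was 0.56. The test was edgeR's quasi-likelihood F test with Benjamini-Hochberg adjustment over all 15663 genes, and log2 fold changes are given with their SE.

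**Figure D1:**
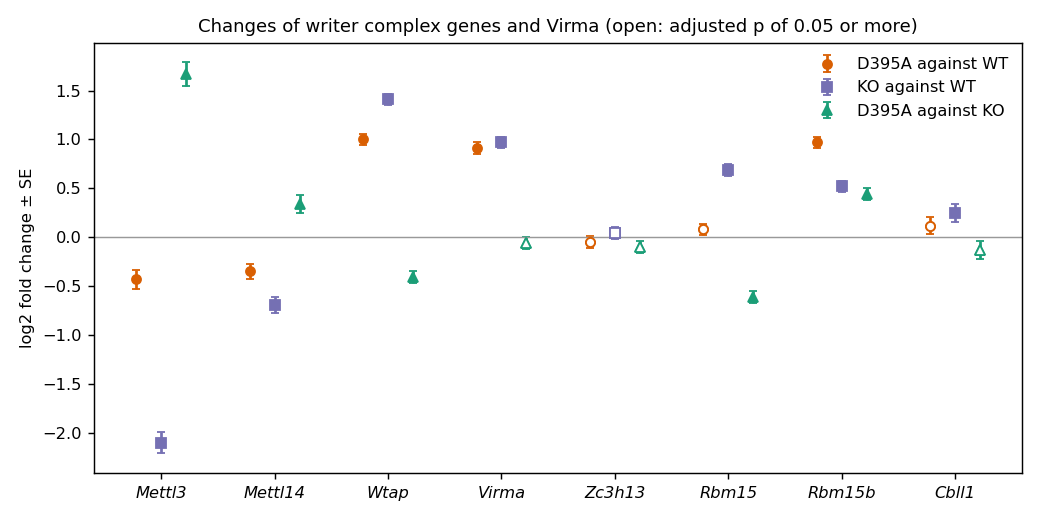
Log2 fold change (vertical axis, with SE bars) of the 7 writer complex genes and of Virma in the 3 comparisons. Filled symbols passed the test and open symbols did not. Mettl3 has the lowest value, -2.10 in KO against WT, and Wtap, Virma and Rbm15b lie above 0 in both comparisons with WT.

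Mettl3, which encodes the catalytic subunit, stood at 21.1 and 23.4 CPM in D395A, 7.82 and 6.17 in KO, and 28.5 and 31.6 in WT. The 3 groups did not overlap, with KO lowest and WT highest. These levels rest on 496 and 843 counts in D395A, 275 and 214 in KO, and 1159 and 1145 in WT. The log2 fold change in KO against WT was -2.10 ± 0.11 (adjusted p = 6.5e-09), a level of 0.233 of that in WT, so Mettl3 RNA was lower in the libraries labelled knockout but was still counted in both. The labels do not say which part of the gene was disrupted, and disruption need not remove the RNA. In D395A the level was 0.744 of that in WT (log2 fold change -0.43 ± 0.10, 95% interval -0.65 to -0.21, adjusted p = 0.0022). D395A lay above KO by 1.67 ± 0.12 on the log2 scale (adjusted p = 1.2e-07). By size, the change in KO ranked 1564 among the 15663 tested genes, and the change in D395A ranked 9699. Mettl3 shares 18.4% of its annotated exon bases with Tox4, which runs on the other strand. Tox4 stood at 87.8 and 96.1 CPM in D395A, 102 and 105 in KO, and 111 and 108 in WT. Tox4 was lower in D395A than in WT (-0.25 ± 0.06, adjusted p = 0.0045) and than in KO (-0.17 ± 0.06, adjusted p = 0.046), and its change in KO did not pass the test (-0.08 ± 0.06, 95% interval -0.22 to 0.06, adjusted p = 0.31). Its part in the Mettl3 counts was not tested.

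Mettl14, the RNA-binding partner of METTL3, stood at 23.3 and 27.2 CPM in D395A, 19.3 and 20.8 in KO, and 32.0 and 32.5 in WT. As for Mettl3, the order was WT, D395A and KO, without overlap between groups. Its log2 fold change was -0.35 ± 0.08 in D395A against WT (adjusted p = 0.0026) and -0.69 ± 0.08 in KO against WT (adjusted p = 1.3e-05). D395A lay above KO by 0.34 ± 0.09 (adjusted p = 0.0064), a call that ended without D395A replicate 2 (0.21, adjusted p = 0.0925). Scaled to annotated exon length, the ratio of Mettl3 to Mettl14 was 1.33 and 1.26 in D395A, 0.591 and 0.434 in KO, and 1.30 and 1.42 in WT. The ratio in D395A thus overlapped that in WT, while both KO libraries lay below both groups.

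Wtap, the gene of the adaptor that carries the enzyme pair into nuclear speckles, stood at 187 and 195 CPM in D395A, 249 and 258 in KO, and 95.3 and 95.4 in WT. The groups did not overlap, and their order was KO, D395A and WT. The level in D395A was 2.01 times that in WT (1.00 ± 0.06, adjusted p = 2.0e-08), and the level in KO was 2.66 times that in WT (1.41 ± 0.06, adjusted p = 1.2e-09). Between the mutant lines, Wtap was lower in D395A, with a log2 fold change of -0.41 ± 0.06 against KO (adjusted p = 0.00012). Virma, the scaffold that WTAP binds, is not among the 7 genes and was taken from a list of partners. It stood at 174 and 187 CPM in D395A, 185 and 192 in KO, and 97.1 and 95 in WT. Both mutant lines were above WT, and they overlapped each other. Virma rose by 0.91 ± 0.06 in D395A (adjusted p = 5.8e-08) and by 0.97 ± 0.06 in KO (adjusted p = 3.6e-08). The difference between D395A and KO was -0.06 (95% interval -0.20 to 0.08, adjusted p = 0.44), so a difference of more than 0.20 on the log2 scale lay outside the interval.

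The paralogs Rbm15 and Rbm15b encode RNA-binding adaptors that recruit the complex to its transcripts. They changed differently in the mutant lines. Rbm15 stood at 93.2 and 92.0 CPM in D395A, 144 and 139 in KO, and 84.1 and 91.6 in WT. It rose in KO (0.69 ± 0.06, adjusted p = 8.8e-07), while in D395A it differed from WT by 0.08 ± 0.06 (95% interval -0.06 to 0.22, adjusted p = 0.31). It was lower in D395A than in KO (log2 fold change -0.61 ± 0.06, adjusted p = 5.5e-06). Rbm15b stood at 84.2 and 84.6 CPM in D395A, 63.2 and 61.0 in KO, and 44.9 and 41.4 in WT. Here D395A was highest, KO intermediate and WT lowest, with no overlap. The rise was 0.97 ± 0.06 in D395A (adjusted p = 3.9e-08) and 0.52 ± 0.06 in KO (adjusted p = 1.2e-05), and D395A exceeded KO by 0.44 ± 0.06 (adjusted p = 8.6e-05). The direct test between the mutant lines thus passed for both paralogs, with opposite signs. Per annotated exon length, the ratio of Rbm15 to Rbm15b was 0.972 and 0.954 in D395A, 1.99 and 2.00 in KO, and 1.64 and 1.94 in WT. Only 75 exon bases of Rbm15b (1.15%) overlap Dcaf1 on the opposite strand, and 14 overlap Manf on the same strand.

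Zc3h13, which links RBM15 to WTAP, stood at 78.2 and 85.5 CPM in D395A, 89.0 and 86.1 in KO, and 85.8 and 84.0 in WT. It passed the test in none of the 3 comparisons. The 95% interval of its log2 fold change was -0.19 to 0.09 in D395A against WT (adjusted p = 0.49), -0.09 to 0.18 in KO against WT (adjusted p = 0.55) and -0.24 to 0.04 in D395A against KO (adjusted p = 0.24). Changes larger than these bounds were therefore outside the interval at this depth. Cbll1, the gene of the ubiquitin ligase HAKAI, stood at 60.4 and 71.0 CPM in D395A, 66.9 and 77.3 in KO, and 61.0 and 60.2 in WT. The D395A libraries overlapped both other groups. Cbll1 rose in KO by 0.25 ± 0.09 (95% interval 0.06 to 0.43, adjusted p = 0.021), but the call ended without KO replicate 2 (0.14, adjusted p = 0.2), without WT replicate 1 (0.26, adjusted p = 0.0966) and without WT replicate 2 (0.24, adjusted p = 0.12). In D395A the value was 0.12 ± 0.09 (95% interval -0.07 to 0.31, adjusted p = 0.23), and without D395A replicate 1 it was 0.23 (adjusted p = 0.0304). Of the exon bases of Cbll1, 17.6% overlap Gm29542 on the opposite strand, a symbol that the deposited counts do not hold.

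**Figure D2:**
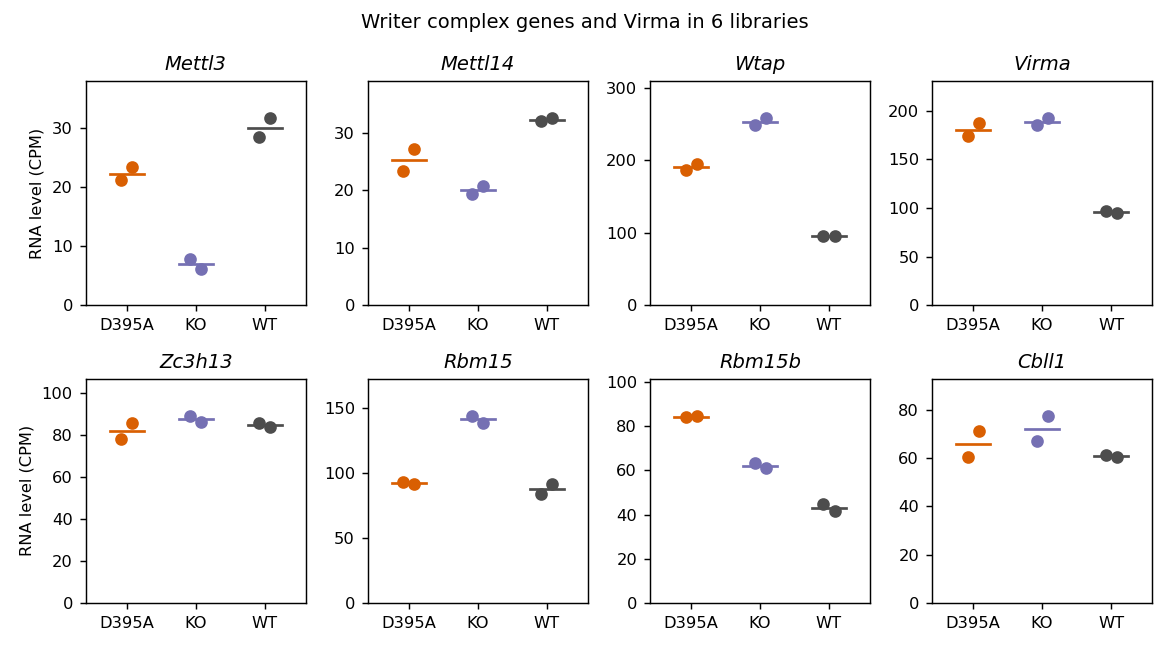
RNA level (vertical axis, CPM from 0) of each writer complex gene and of Virma, with 1 point per library and a line at the mean of each group. D395A stands left, KO in the middle and WT on the right. Mettl3 and Mettl14 are highest in WT, Wtap and Rbm15b are lowest there, and the Zc3h13 points of all groups lie between 78.2 and 89.0 CPM.

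Levels of different genes were compared per kilobase of annotated exon. Wtap was the most abundant of the 7 genes in all 3 groups, with 30.6 ± 0.88 CPM per kb in D395A, 40.6 ± 1.01 CPM per kb in KO and 15.3 ± 0.00819 CPM per kb in WT (SD, n = 2 each). In WT it was followed by Cbll1 (15.1 CPM per kb), Zc3h13 (13.5), Rbm15 (11.8), Rbm15b (6.63), Mettl3 (5.91) and Mettl14 (4.35). Each neighbouring pair in that order was separated in both libraries, although Wtap and Cbll1 lay close, at 15.3 and at 15.0 to 15.2 CPM per kb. Mettl14 was the least abundant gene in D395A and WT, whereas in KO it was Mettl3 (1.38 ± 0.23 CPM per kb). In D395A, Zc3h13 and Rbm15b overlapped, at 12.4 to 13.6 and 12.9 to 13.0 CPM per kb, and in KO Rbm15 overlapped with Cbll1. The order depends on the length used. Per kilobase of the principal transcript, which is much shorter than all exons of Wtap together (2060 against 6248 bases), Wtap reached 92.8, 123 and 46.3 CPM per kb in D395A, KO and WT. With that length Mettl3 took place 4 in WT (14.8 CPM per kb), and Rbm15b was the least abundant there (6.63 CPM per kb).

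The makeup of the complex at the RNA level differed between the groups. Wtap held 33.2% and 32.5% of the summed level per annotated exon length in D395A, 38.4% and 38.8% in KO, and 21.1% and 20.9% in WT. Mettl3 held 4.61% and 4.79% in D395A, 1.48% and 1.14% in KO, and 7.77% and 8.52% in WT. The share of Mettl14 was 3.47% and 3.81% in D395A, 2.51% and 2.63% in KO, and 5.96% and 6.01% in WT. The groups did not overlap for any of these 3 genes. Groups did overlap for Rbm15b, which held 9.34% and 8.8% in KO and 9.54% and 8.72% in WT. They also did for Cbll1, with 16% and 18.1% in KO and 16.7% and 18.4% in D395A. By CPM, 85.3% of all tested genes did not overlap in D395A against WT, 83.9% in KO against WT and 74.7% in D395A against KO. The sum itself was 90.3 and 96.2 CPM per kb in D395A, 104 and 106 in KO, and 72.3 and 73.0 in WT. Wtap exceeded Mettl3 by a ratio of 7.20 and 6.78 in D395A, 25.9 and 34.0 in KO, and 2.72 and 2.45 in WT. Shares of a sum are not independent, since a higher share of Wtap lowers all others, and they are given as a description with no test.

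**Figure D3:**
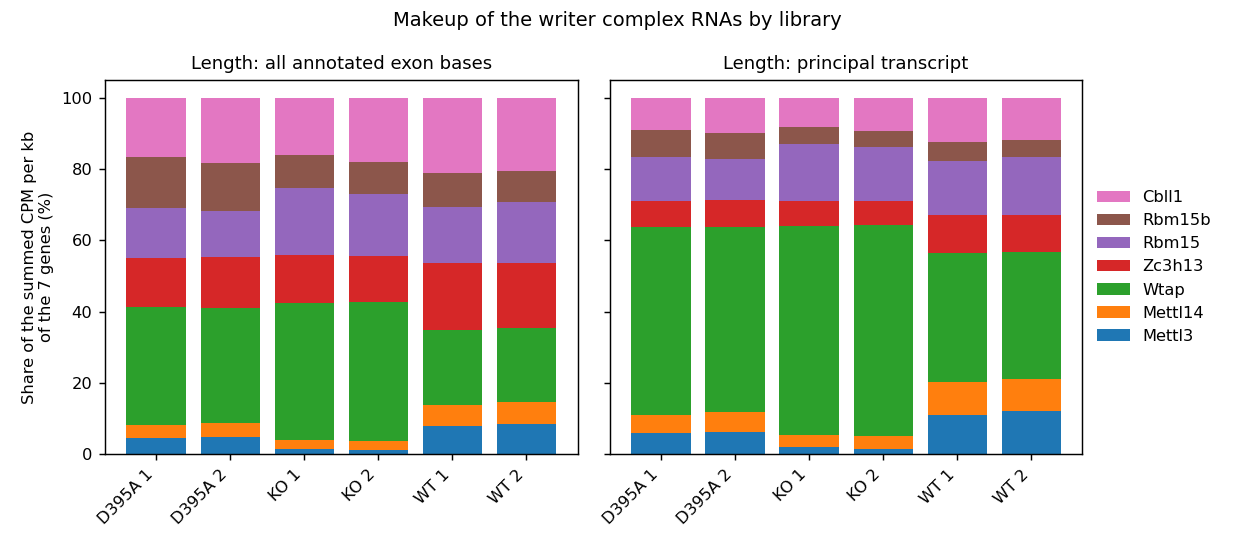
Share of each of the 7 genes in their summed CPM per kb (vertical axis, percent), 1 bar per library, by annotated exon length on the left and by principal transcript length on the right. The Wtap part is widest in KO and narrowest in WT on both sides, and the Mettl3 part is widest in WT.

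Genes that work beside the complex moved in both directions. Of 9 partners that bind the writer complex, 3 rose and 3 fell in D395A (median log2 fold change 0.04, where that of all genes was 0.02), and 2 rose and 3 fell in KO (median -0.03, against 0.01). In D395A against KO, 3 were higher and 2 lower. Beside these 6, 5 and 5 called genes of 9 stand 70.3%, 66.2% and 50.4% of all tested genes. Cebpz, which brings METTL3 to promoters, had the largest fall in the list. It stood at 56.2 and 56.6 CPM in D395A, 75.7 and 70.4 in KO, and 144 and 143 in WT. Its log2 fold change was -1.35 ± 0.06 in D395A (adjusted p = 1.6e-09) and -0.97 ± 0.06 in KO (adjusted p = 2.6e-08). Spen, the large relative of Rbm15 and Rbm15b, rose in D395A (0.69 ± 0.08, adjusted p = 4.3e-06) and reached 0.18 ± 0.08 in KO (adjusted p = 0.057). Bclaf1, a nuclear protein found with WTAP, fell by 0.25 in D395A (adjusted p = 0.0031) and 0.43 in KO (adjusted p = 6.1e-05). Both genes are named after their values were seen.

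The list of 6 other adenosine methyltransferase genes includes Trmt112, which encodes a non-catalytic partner of such enzymes and was higher in D395A. The list held 2 higher and 3 lower members in D395A (median -0.30), where 36.3% of all genes were higher and 34.0% lower (median 0.02). In KO against WT, 4 were lower and the other 2 did not pass (median -0.24), where 32.6% of all genes were lower and the median was 0.01. In D395A against KO, 2 were higher and 2 lower, where 26.5% of all genes were higher and 23.8% lower. In the edgeR test none of them reached an absolute log2 fold change of 1 in either comparison with WT. In D395A, Mettl16 came nearest, at 47.0 and 49.5 CPM in D395A, 77.0 and 76.3 in KO, and 97.4 and 90.0 in WT. This enzyme methylates U6 small nuclear RNA. Its log2 fold change was -0.96 ± 0.07 in D395A (adjusted p = 5.2e-08) and -0.29 ± 0.06 in KO (adjusted p = 0.0014). Mettl16 lies on chromosome 11, on which the median of all tested genes was -0.49 in D395A and -0.42 in KO, and the part of that shift in its value was not tested. Mettl4, on chromosome 17, lay close to Mettl16 in D395A (-0.95 ± 0.07, adjusted p = 1.6e-07). In KO, Mettl4 was at -0.66 ± 0.07 (adjusted p = 4.4e-06). Mettl16 and Mettl4 were chosen after their values were seen.

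**Figure D4:**
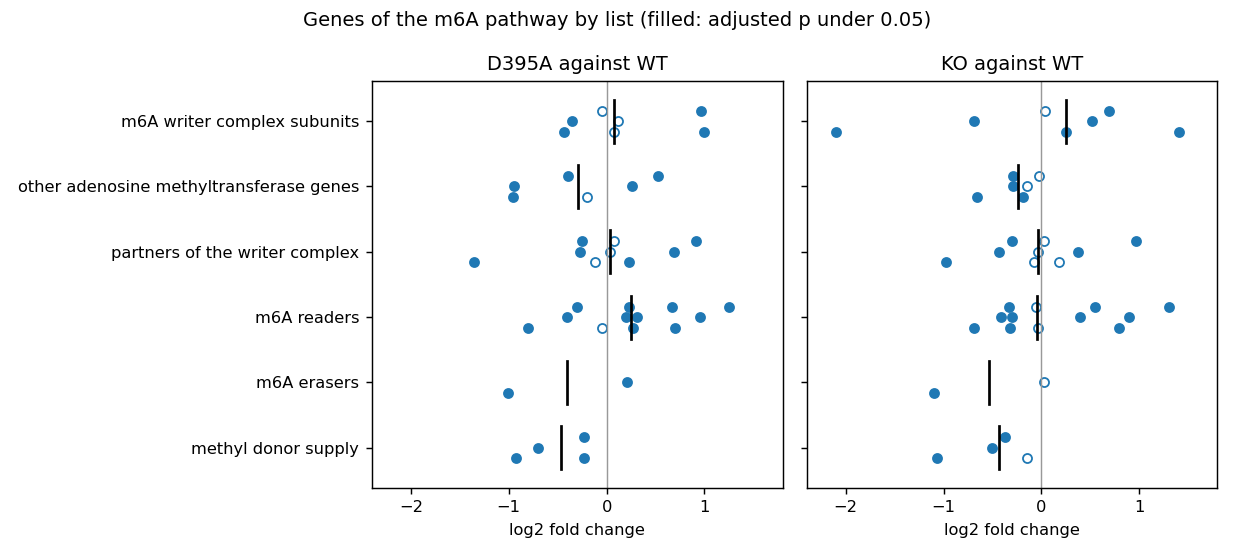
Log2 fold change (horizontal axis) of single genes in the writer complex and in 5 lists of related genes, in D395A against WT on the left and KO against WT on the right. Filled points passed the test, open points did not, and the vertical strokes are list medians. The methyl donor list has no point above 0 in either panel, and the list of other adenosine methyltransferase genes has none in KO.

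None of the 7 genes lies on chromosomes 8 or 11, whose genes were shifted down in both mutant lines. Median log2 fold changes on their own chromosomes (3, 9, 12, 14 and 17) were 0.02 to 0.20 in D395A against WT and -0.09 to 0.14 in KO against WT. Mettl3 (52294841 to 52305128) and Zc3h13 (75284373 to 75344426, plus strand) are on chromosome 14. Mettl14 (123368297 to 123386108) and Rbm15 (107325421 to 107333673) are on chromosome 3, Wtap (12966796 to 12994169) on chromosome 17, Rbm15b (106880918 to 106887428) on chromosome 9 and Cbll1 (31484829 to 31499616) on chromosome 12. These are protein-coding genes on the minus strand except where stated (GENCODE M21, GRCm38). The nearest tested gene on each side, by the middle of the gene, was set beside each writer gene. Beside Wtap, Acat2 changed by 0.28 ± 0.06 in D395A and -0.19 ± 0.06 in KO, and Sod2, a mitochondrial superoxide dismutase, by -0.99 ± 0.06 in D395A (adjusted p = 1.8e-08) and 0.02 ± 0.06 in KO (adjusted p = 0.79). Beside Mettl3, the zinc finger gene Sall2 stood at 43.5 and 46.9 CPM in D395A, 26.4 and 26.7 in KO, and 5.95 and 5.57 in WT. Sall2 thus rose in both lines (2.97 ± 0.09 and 2.20 ± 0.09), where Mettl3 fell.

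Among the other neighbours, Manf, which overlaps Rbm15b, rose by 0.32 ± 0.06 in D395A (adjusted p = 0.00063) and 0.18 ± 0.06 in KO (adjusted p = 0.028). Dcaf1 overlaps Rbm15b from the same side as Manf and is not in the plot of neighbours. It was at -0.09 ± 0.07 in D395A against WT (adjusted p = 0.22), 0.19 ± 0.07 in KO against WT (adjusted p = 0.025) and -0.28 ± 0.07 in D395A against KO (adjusted p = 0.0037). Dock3, on the other side, stood at -0.06 ± 0.12 in D395A (adjusted p = 0.68) and -0.38 ± 0.12 in KO. Sec24d beside Mettl14 was at -0.05 ± 0.08 in D395A and -0.35 ± 0.08 in KO. Prss12, on the other side of Mettl14, had 41 and 35 counts in D395A, 9 and 0 in KO, and 1 and 0 in WT, too few for a stable fold change. Beside Zc3h13, the actin-bundling gene Lcp1 fell by 2.74 in D395A and 0.92 in KO, and Cog3 fell by 0.48 and 0.22. Slc16a4, beside Rbm15, rose by 3.09 ± 0.54 in D395A and 2.17 ± 0.55 in KO, on 89 and 87 counts in D395A, 82 and 32 in KO, and 21 and 7 in WT. Kcnc4 on the other side of Rbm15 did not pass in either (adjusted p = 0.22 and 0.11). Beside Cbll1, Dld rose by 0.52 ± 0.06 in D395A and 0.57 ± 0.06 in KO, and Bcap29 changed by -0.04 ± 0.08 in D395A (adjusted p = 0.68) and -0.43 ± 0.08 in KO (adjusted p = 0.00037).

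**Figure D5:**
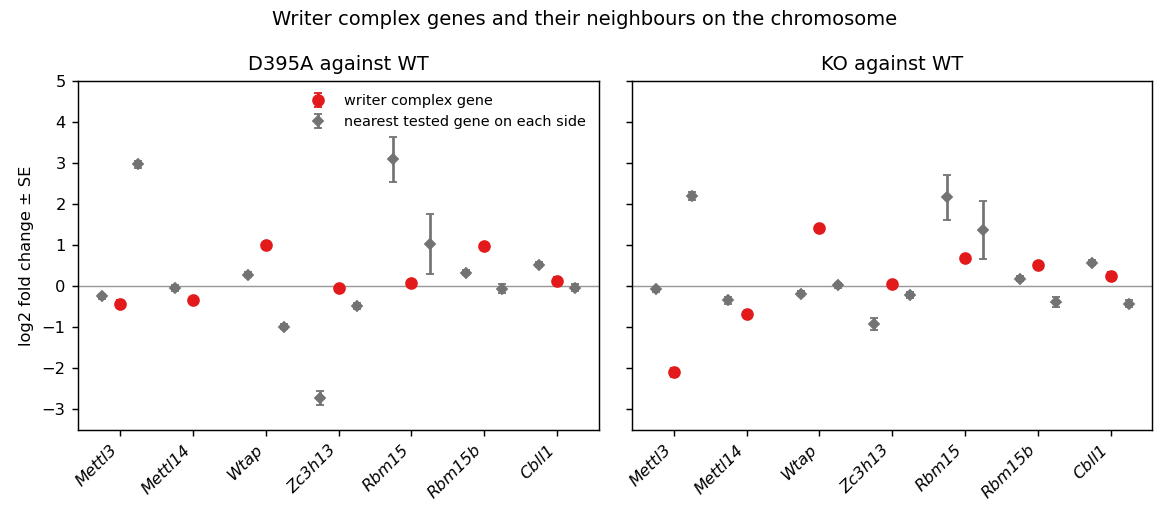
Log2 fold change with SE (vertical axis) of each writer complex gene (red) and of the nearest tested gene on each side (grey), in D395A against WT on the left and KO against WT on the right. Prss12 is not drawn because WT held 1 count of it. Wtap lies above both of its neighbours in each panel, and Sall2 lies above Mettl3 in each.

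The transcripts of the 7 genes differed in length and in how often they hold GGACT, the sequence most favoured by the writer complex, counted on the sense strand only. The principal Wtap transcript (2060 bases) held it 5 times, or 2.43 per kb, more than 94.2% of 14406 tested coding genes did. Mettl3 held 4 in 2025 bases (1.98 per kb), and the median of all those genes was 1.06 per kb. Rbm15 held 2 in 4343 bases (0.461 per kb), the lowest density among the 7, and Zc3h13 held 7 in 6151 bases (1.14 per kb), all in the coding sequence. A match is not a methylated site. Over the 6 libraries, the gene nearest to Mettl3 in centred log2 CPM was Narf (distance 0.184), followed by Armcx1 (0.269). Gpt2 (0.0253) and Sf3a2 (0.0637) were nearest to Mettl14, and Pi4kb (0.0814) and Nt5c2 (0.0995) to Wtap. Nearest to Zc3h13 was Son (0.0484), to Rbm15 Ppp1r9b (0.0995), to Rbm15b Cdip1 (0.0693) and to Cbll1 4930539E08Rik (0.0773). These genes were picked as the closest of 15663, so their small distances are only a description. Narf and Ppp1r9b lie on chromosome 11 and Gpt2 on chromosome 8. Among the writer genes and Virma, Zc3h13 and Cbll1 were closest (0.29), followed by Wtap and Virma (0.466). Mettl3 and Wtap were farthest apart (3.54). Replicate scatter by edgeR's estimate, which borrows from other genes, was lower for Wtap, Rbm15b, Zc3h13 and Rbm15 than for most genes. Their biological coefficients of variation were 4.09% to 4.25%, against a median of 6.13%. Mettl3 (6.59%), Cbll1 (5.77%) and Mettl14 (5.34%) lay nearer to that median.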

How the data were processed

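The authors deposited 1 table of read counts per gene symbol for each of the 6 libraries, made from RNA depleted of ribosomal RNA with a strand-specific kit, per the labels' protocols. Per the submitters' processing notes, they used Trimmomatic 0.36, STAR 2.7 and HTSeq 0.11.2 with the build mm10. Neither the annotation release nor the strand setting of the counting is recorded in the labels, and counts in exons shared with the opposite strand are uncertain. The HTSeq summary lines, 29.0% to 44.2% of each table's total, were left out. Rn45s, a ribosomal RNA precursor, was kept. It held 14.3% and 13.9% of gene counts in D395A, 16.7% and 15.7% in KO, and 10.8% and 11.2% in WT. With Rn45s left out, no call of a member changed. A single count equalled 0.0246 to 0.0426 CPM.

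Counts were tested in R 4.3.3 with edgeR 4.0.16: filterByExpr, TMM factors, estimateDisp and the quasi-likelihood F test, in a single model of the 3 groups fitted to all 6 libraries (3 residual degrees of freedom, no covariate). P-values were adjusted by Benjamini-Hochberg over 15663 genes, at a threshold of 0.05. The SE is the log2 fold change over the root of F, and 95% intervals use the t distribution of the fit. The steps were also run on simulated counts in which few genes changed. In these data 50.4% to 70.3% of tested genes were called, a setting that the simulation does not cover. Alternatives used DESeq2 1.42.0, limma 3.58.1, other scalings and filters, a replicate block, and each library left out in turn.

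Positions and exon lengths came from GENCODE M21 (GRCm38), which held 97.9% of the symbols. Distances between genes used log2(CPM + 0.1). The members and lists were chosen with earlier results of these data known. The named genes were the 7 members, Virma, genes of the lists that passed the test and changed by 1 or more on the log2 scale against WT, the nearest tested gene on each side of a member (by gene midpoint), and the 1 or 2 genes closest to each member. Other list genes, markers and overlapping genes were named after their values were seen. No p is adjusted over a list alone, and no test of a list was made.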

Additional observations from a re-analysis of the deposited data

Results flagged for a closer look

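The shifts of the 2 mutant lines from WT differed from each other for 5 of the 7 writer complex genes, by the direct edgeR test of D395A against KO, in which 50.4% of all tested genes were called. The log2 difference was 1.67 for Mettl3 (higher in 2 of 2 D395A libraries than in both KO libraries), 0.34 for Mettl14, -0.41 for Wtap, -0.61 for Rbm15 and 0.44 for Rbm15b. The libraries of the 2 lines did not overlap for any of these 5 genes, as for 74.7% of all tested genes. Rbm15b is the one among them that rose in both lines and more in D395A than in KO. Groups of 2 libraries are too small for a check of single outlying samples.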

How the results depend on the processing

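Each of 21 log2 fold changes and the counts of calls were recomputed under 15 alternatives. Of 315 recomputed fold changes, 303 kept their direction and their side of the threshold. Members called higher numbered 2 to 3 in D395A against WT, 3 to 4 in KO against WT and 2 to 3 in D395A against KO, and members called lower 2, 2 and 2 to 3. Called values of Mettl3, Wtap, Rbm15 and Rbm15b did so under every alternative run, and so did those of Mettl14 against WT. Scaling without genes of chromosomes 8, 11 and Y moved the median of all genes to -0.06 in D395A against WT and -0.04 in KO against WT. It turned uncalled values round, to -0.0041 for Rbm15 in D395A against WT (adjusted p = 0.957) and -0.0086 for Zc3h13 in KO against WT (adjusted p = 0.91), and it ended the call of Cbll1 in KO against WT (0.20, adjusted p = 0.0536). With single libraries left out, Cbll1 ranged from -0.0061 to 0.23 in D395A against WT, from 0.14 to 0.35 in KO against WT and from -0.26 to -0.02 in D395A against KO, where it passed without D395A replicate 2 (adjusted p = 0.0389) and without KO replicate 1 (-0.24, adjusted p = 0.0495). In the same settings Zc3h13 in D395A against WT ranged from -0.12 to 0.01, and Mettl14 in D395A against KO from 0.21 to 0.44. The cause was not tested. All genes called ranged from 9398 to 11420, 8523 to 10769 and 6918 to 8365 in D395A against WT, KO against WT and D395A against KO. The replicate numbers are not stated to pair libraries, and the correlation of their deviations was 0.01, 0.01 and -0.21. With the replicate block, 10843, 10220 and 7832 genes were called, and no call of a member changed. The lowest count of a member in any library was 214, for Mettl3 in KO.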

Other observations

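Readers of m6A from the YTH family rose in both mutant lines, a subset singled out after its values were seen. All 5 genes, Ythdf1, Ythdf2, Ythdf3, Ythdc1 and Ythdc2, passed the edgeR test upward in D395A and in KO against WT, where 36.3% and 33.6% of all genes did. In D395A against KO their log2 differences lay between -0.17 and 0.15 (adjusted p = 0.066 for Ythdc2, the lowest of the 5). Ythdf2, which speeds the decay of methylated messenger RNA, stood at 294 and 322 CPM in D395A, 304 and 334 in KO, and 130 and 130 in WT. Ythdc1, the reader in the nucleus, stood at 187 and 204 CPM in D395A, 184 and 192 in KO, and 99.7 and 102 in WT. Over the whole list of 12 readers, 8 rose and 3 fell in D395A (median 0.25), and 5 rose and 5 fell in KO (median -0.04). Of all tested genes, 34.0% fell in D395A and 32.6% in KO. Igf2bp3 and Hnrnpa2b1 went in opposite directions, higher in D395A (0.27 and 0.31) and lower in KO (-0.33 and -0.30), and both passed the test of D395A against KO (0.60 and 0.61). These 2 genes were chosen after their values were seen.

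Of the 2 erasers, Alkbh5 stood at 184 and 204 CPM in D395A, 175 and 189 in KO, and 384 and 398 in WT, while Fto changed by 0.21 ± 0.07 in D395A (adjusted p = 0.02) and 0.03 ± 0.07 in KO (adjusted p = 0.7). Of 5 genes listed around the methyl donor, not all of which make it, 4 were tested. All 4 fell in D395A (median -0.47), where 34.0% of all genes fell and the median was 0.02, and 3 fell in KO (median -0.43), where 32.6% of all genes fell and the median was 0.01. Ahcyl1 did not pass in KO (-0.15 ± 0.07, adjusted p = 0.063). Mat2b, a regulatory subunit of the enzyme that makes S-adenosylmethionine, stood at 33.9 and 32.9 CPM in D395A, 30.0 and 30.6 in KO, and 63.5 CPM in each WT library. Mat2b and Alkbh5 lie on chromosome 11, whose median was -0.49 in D395A and -0.42 in KO. Fto lies on chromosome 8, whose median was -0.35 in D395A and -0.48 in KO. The part of these shifts in the values of the 3 genes was not tested. Mat2a, the catalytic subunit of that enzyme, is listed with 1 count over all 6 libraries and was not tested. Since the strand and overlap settings of the counting are not recorded in the labels, that count cannot be read as absence of its RNA.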
